A study of Saccharomyces cerevisiae with 96 samples.

Results

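The genes described here are the 9 genes of lysine synthesis in budding yeast (LYS1, LYS2, LYS4, LYS5, LYS9, LYS12, LYS14, LYS20 and LYS21), of 6701 genes in the table. They were chosen by pathway from their names, with earlier results on these data known, among them a lower response of the pathway to xylulose after evolution. RNA was sequenced from 12 wild type Saccharomyces cerevisiae strains of diverse origin (1 YPS1009, 2 T73, 3 T7, 4 Y12, 5 YJM269, 6 PW5, 7 CLIB215, 8 CLIB324, 9 CBS7960, 10 EC1118, 11 BY4743 and 12 SK1) and from the population evolved from each strain by about 300 generations of serial dilution in YP-xylulose. Xylulose is a pentose sugar that yeast can use but seldom meets, and its medium was made from xylose, so it also held xylose. The 4 conditions were evolved populations on xylulose, wild type strains on xylulose, evolved populations on glucose (YPD) and wild type strains on glucose, all in log phase. The evolved cultures were mixed populations, not clones, and each strain had a single evolved line. The 96 libraries, 2 repeats a strain and condition, were deposited as 48 columns in log2 RPM (reads scaled to a library total of 1000000). By the paper's account the 2 repeats were averaged. There are thus n = 12 columns a condition, and the spread given is that between strains.

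Yeast makes lysine from 2-oxoglutarate by the alpha-aminoadipate pathway, which other fungi share and plants and most bacteria do not. Homocitrate synthase (Lys20 and Lys21) opens the pathway and is inhibited by lysine, its end product. The transcription factor Lys14 turns on several genes of the pathway when the intermediate alpha-aminoadipate semialdehyde builds up, and Gcn4, the general activator of amino acid synthesis, acts on many of them when amino acids run short. Both media contained peptone and yeast extract, which supply lysine.

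Values below 10 RPM were blank in the deposited table. Of the 432 values of the 9 genes, 13 were blank, 8 in LYS5, 2 each in LYS1 and LYS20, and 1 in LYS14. All 9 genes passed the filter for testing, a mean of at least 10 RPM over the 48 columns with blanks as 0, as did 5129 genes in all. The back-transformed columns summed to between 888352 and 1005807 RPM. In the 17 columns whose low values fell on regular steps, the steps gave between 253320 and 1114012 reads. Thus 10 RPM stood for 6.81 reads at their median depth and 2.53 at the lowest, that of wild type CLIB215 on glucose. A mean of 2 separately scaled libraries would not in general fall on the steps of a single depth. Whether these 17 columns average both repeats was not tested. A column value is a share of the mRNA, and a smaller share cannot be told apart from more mRNA of other genes.

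The numbers of the evolved columns from 5 to 12 went against their labels. LEU2 and URA3, which are deleted in BY4743, were blank in wild type 11 on both media. Evolved 11, however, had 82.8 and 88.8 RPM of LEU2 on xylulose and glucose, and in evolved 7 LEU2 was blank on both. URA3 in evolved 7 was blank on xylulose and 13.3 RPM on glucose, the lowest evolved value there. Evolved columns were correlated with the wild type strains over 59 genes whose levels marked these strains in the same way on both media. In each medium every evolved column was assigned to a different strain, so that the summed correlation was highest. An assigned strain is thus not always the best single match of its column. Of the 16 evolved columns from 5 to 12, 15 were assigned to another number in a fixed pattern (5 with 9, 6 with 10, 7 with 11 and 8 with 12, each way round). Of the 8 columns from 1 to 4, 7 were assigned to their own number. The labels were kept in the main analysis, and comparisons of evolved with wild type columns are given also with these numbers exchanged and with numbers 1 to 4 alone. The exchange leaves the mean over the strains as it is and changes the spread of the pairs. The ratio of xylulose to glucose within the evolved populations does not depend on it.

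The upstream regions of 4 genes are printed as examples, LYS1 and LYS12 with both motifs searched for, LYS2 with 1 and LYS20 with neither. In the wild type strains the log2 ratio of xylulose to glucose was 2.76 for LYS1, 1.11 for LYS12, 2.49 for LYS2 and 3.04 for LYS20. A link between motifs and response was not tested. Each runs from 250 bases before the start codon to 50 bases from its first base on, 5′ to 3′ on the strand of the gene, from the RefSeq genome of S288C (R64). Capitals mark the core of the Gcn4 site (TGACTC, which reads GAGTCA on the other strand) and the pattern searched for as the Lys14 element. This pattern was TCCNNNGGA, which reads alike in its fixed letters on both strands. Any base was allowed at each N, so some matches may not be sites that Lys14 can bind. LYS1 lies at chrIX:420687-420986 on the minus strand, LYS2 at chrII:473877-474176 on the minus strand, LYS12 at chrIX:187583-187882 on the minus strand and LYS20 at chrIV:133187-133486 on the plus strand.
LYS1: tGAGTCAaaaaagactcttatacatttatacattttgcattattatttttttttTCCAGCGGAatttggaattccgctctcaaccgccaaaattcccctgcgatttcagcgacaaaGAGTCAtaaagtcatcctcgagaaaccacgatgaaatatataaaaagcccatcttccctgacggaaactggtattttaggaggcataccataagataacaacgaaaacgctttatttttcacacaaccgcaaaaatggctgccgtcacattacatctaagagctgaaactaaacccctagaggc
LYS2: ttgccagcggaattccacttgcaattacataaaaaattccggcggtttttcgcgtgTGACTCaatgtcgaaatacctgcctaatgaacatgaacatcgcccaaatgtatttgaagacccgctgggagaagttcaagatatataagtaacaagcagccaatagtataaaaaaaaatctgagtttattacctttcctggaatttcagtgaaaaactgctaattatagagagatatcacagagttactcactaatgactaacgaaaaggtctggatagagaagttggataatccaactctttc
LYS12: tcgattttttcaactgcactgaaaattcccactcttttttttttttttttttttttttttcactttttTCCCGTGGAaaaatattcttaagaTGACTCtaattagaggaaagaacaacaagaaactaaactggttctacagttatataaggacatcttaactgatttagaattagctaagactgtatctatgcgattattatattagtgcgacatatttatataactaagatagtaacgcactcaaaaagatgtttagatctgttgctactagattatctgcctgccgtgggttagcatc
LYS20: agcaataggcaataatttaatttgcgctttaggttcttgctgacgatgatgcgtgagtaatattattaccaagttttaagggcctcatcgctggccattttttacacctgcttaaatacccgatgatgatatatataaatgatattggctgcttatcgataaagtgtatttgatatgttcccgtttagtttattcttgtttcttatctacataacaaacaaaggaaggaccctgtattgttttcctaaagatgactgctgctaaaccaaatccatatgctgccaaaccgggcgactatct

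The Gcn4 core was in 4 of the 9 windows, those of LYS1 (at both -249 and -134, counted from the first base of the start codon to the first base of the match), LYS2 (-194), LYS12 (-158) and LYS14 (-250). It was in 7.98% of the 6001 windows of the same length over all genes. The Lys14 element was in 4 of the 9, those of LYS1 (-196), LYS9 (-225 and -163), LYS12 (-182) and LYS14 (-216, and 32 bases into the gene), and in 3.40% of all windows. None of these matches overlapped another. LYS4, LYS5, LYS20 and LYS21 held neither sequence in this window. A match of letters does not show that a factor binds there.

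**Figure D1:**
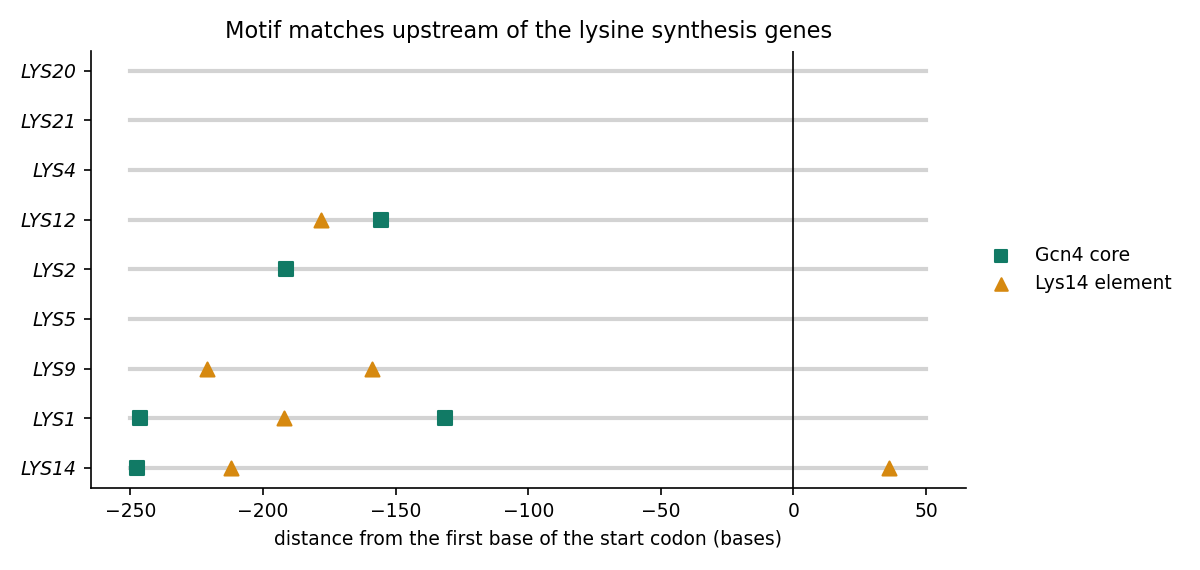
Matches to the Gcn4 core (squares) and the Lys14 element (triangles) in the 9 windows, by distance in bases from the first base of the start codon (x axis), 1 gene a line. LYS1, LYS12 and LYS14 held both motifs, LYS2 held the Gcn4 core alone, LYS9 the Lys14 element alone, and the other 4 genes neither.

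In the wild type strains, 8 of the 9 genes were higher on xylulose than on glucose. LYS20, LYS1 and LYS2 rose most, and LYS5 was the one that did not pass the test. The median log2 ratio of the 9 was 1.41, against 0.31 over all 5129 genes (0.14 with median-of-ratios scaling, under which the 8 calls held). Of all genes tested, 30.5% were higher on xylulose by the same rule (limma on the 12 paired log2 differences, Benjamini-Hochberg adjusted p under 0.05 over all genes). In the evolved populations 5 of the 9 were higher on xylulose (LYS2, LYS4, LYS9, LYS20 and LYS21), with a median log2 ratio of 0.45 over the 9 and of 0.08 over all genes, where 24.0% of the genes were higher. On xylulose, 3 of the 9 (LYS1, LYS2 and LYS14) were lower in evolved than in wild type columns, against 0.838% of all genes. On glucose none of the 9 passed the test between evolved and wild type, where 2.34% of all genes passed in either direction, and 3 of the 9 had an unadjusted p under 0.05, as had 16.3% of all genes. These comparisons share columns with each other and are not independent. The lower response after evolution, known when the genes were chosen, is computed from the same columns. The counts set beside all genes are thus descriptions and not independent of that choice.

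**Figure D2:**
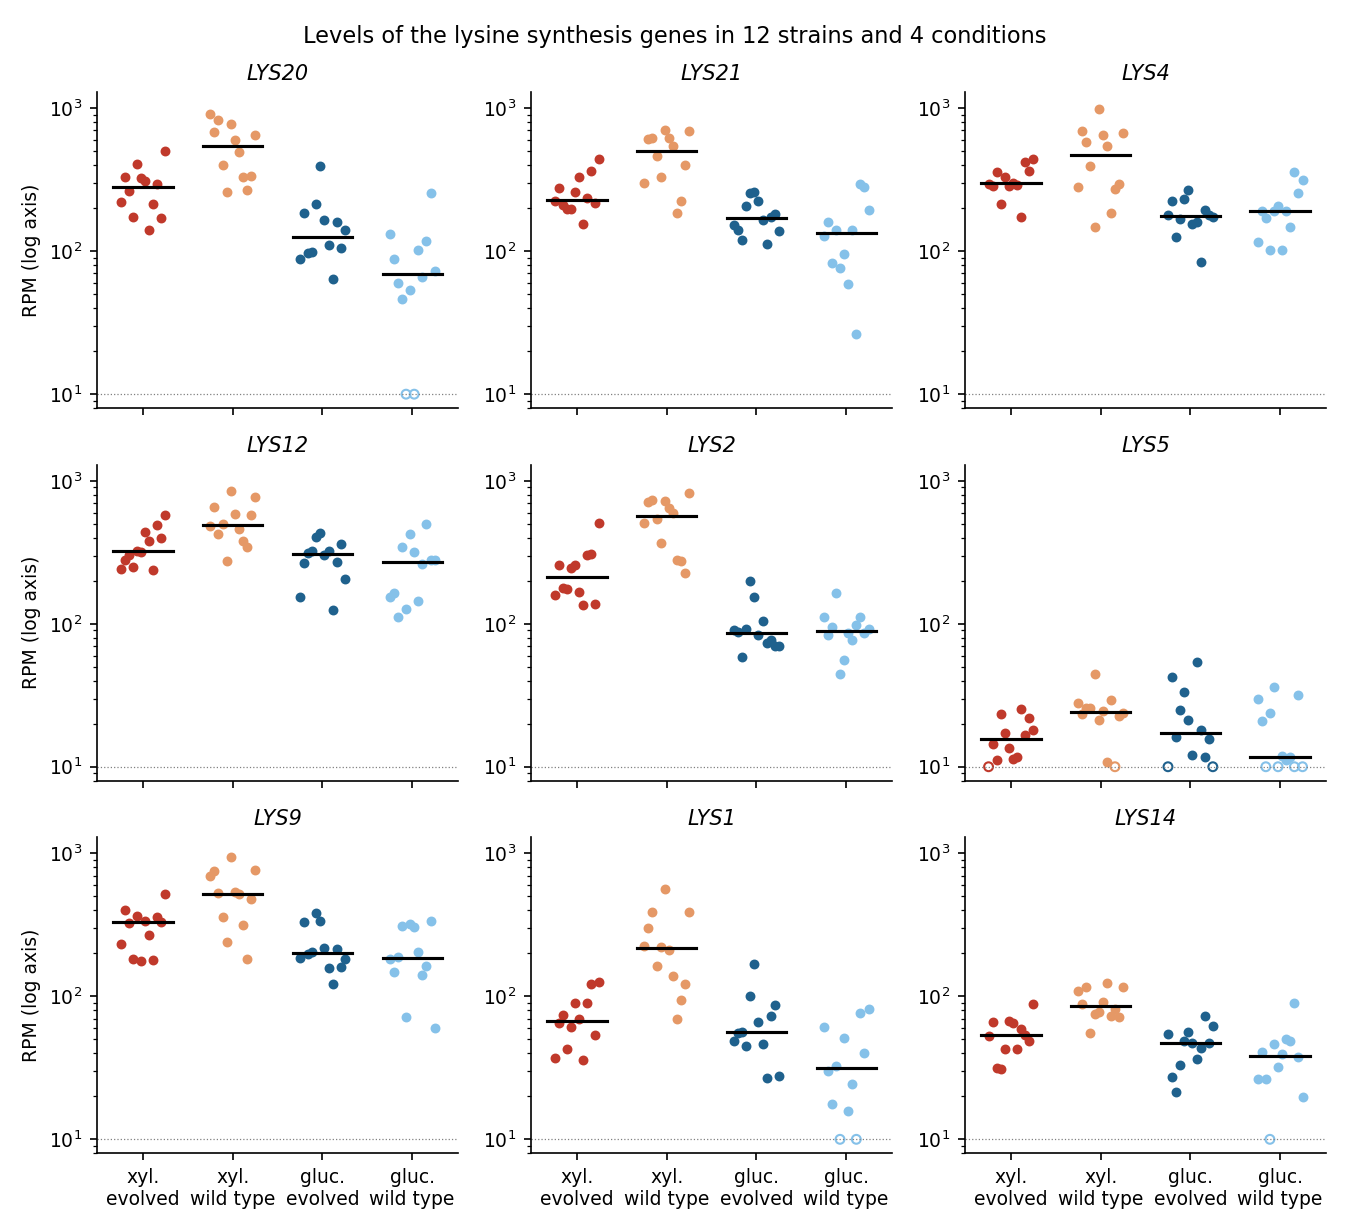
Level of each gene in RPM (y axis, log scale) in the 12 columns of each condition, in the order evolved on xylulose, wild type on xylulose, evolved on glucose and wild type on glucose. Points are columns in the order of their numbers, open points are blanks set at 10 RPM (dotted line), and the bars are medians. For LYS1 the median was 67.7 RPM in evolved and 218 RPM in wild type columns on xylulose, and 56.2 RPM in evolved and 31.4 RPM in wild type columns on glucose.

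LYS20 and LYS21 encode the homocitrate synthases, which join 2-oxoglutarate and acetyl-CoA in the first step. On xylulose LYS20 (YDL182W) lay between 142 and 501 RPM (median 281) in the evolved populations and between 262 and 919 RPM (median 547) in the wild type strains. On glucose it lay between 64.3 and 393 RPM (median 125) in evolved columns and from a blank to 255 RPM (median 69.4) in the wild type, where YJM269 and CLIB215 were blank. All 12 wild type strains had more LYS20 on xylulose than any of them on glucose. Its log2 ratio of xylulose to glucose in the wild type was 3.04 ± 1.47 (SD, n = 12; 8.21-fold; limma adjusted p = 4.14e-07), the highest of the 9 and rank 27 of 5129 genes. With blanks at 0 and a pseudocount of 1 RPM the log2 ratio was 3.58, and for the sum of LYS20 and LYS21 it was 2.37. Both passed. In the evolved populations the log2 ratio was 0.96 ± 0.58 (1.94-fold, higher in 11 of 12, limma adjusted p = 4.09e-05). On xylulose evolved over wild type gave -0.93 ± 0.78 (lower in 10 of 12), which did not pass (limma adjusted p = 0.0532) with the numbers as labelled and passed with them exchanged (0.0344).

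LYS21 (YDL131W) had between 155 and 443 RPM (median 229.9) in evolved and between 186 and 705 RPM (median 505) in wild type columns on xylulose. Its glucose levels were 112 to 259.6 RPM (median 169.9) in evolved and 26.4 to 295 RPM (median 134) in wild type columns. On xylulose 1 of the 12 evolved columns lay below all the wild type columns, and on neither sugar were the states apart. The log2 ratio of xylulose to glucose was 0.54 ± 0.61 in the evolved populations (limma adjusted p = 0.0101, higher in 9 of 12) and 1.91 ± 1.08 in the wild type (5.57e-06, higher in 11 of 12). On xylulose evolved over wild type gave -0.81 ± 0.74 (limma adjusted p = 0.0690, 0.0259 with the numbers exchanged).

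The 2 synthase genes are copies of each other, and how reads that match both were counted is not given in the sources used here. Their coding sequences were identical at 91.9% of 1278 aligned bases, and 468 of the 1238 stretches of 50 bases in LYS20, the read length, also occurred in LYS21. In the last 300 bases of the coding region none of 251 such stretches was shared, and the libraries were made from fragmented RNA selected by its poly(A) tail. Taken as a share of both genes together, with blanks at 10 RPM, LYS20 made up 51.3 ± 6.46% on xylulose in evolved and 53.1 ± 9.01% in wild type columns, and 44.2 ± 8.50% on glucose in evolved and 36.0 ± 16.5% in wild type columns (mean ± SD, n = 12 each). The wild type share on glucose ran from 11.6 to 71.4%, and its low end, from a blank LYS20, is an upper limit. The sum of both genes had a median of 531 RPM in evolved and 1127 RPM in wild type columns on xylulose, and of 296 RPM in evolved and 215 RPM in wild type columns on glucose.

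Lys4 (homoaconitase) and Lys12 (homoisocitrate dehydrogenase) carry the chain on to 2-oxoadipate in the mitochondrion. LYS4 (YDR234W) ranged over 174 to 439 RPM (median 299) in evolved and 148 to 990.1 RPM (median 471) in wild type columns on xylulose, and over 84.6 to 266 RPM (median 176) in evolved and 101 to 359 RPM (median 191) in wild type columns on glucose. It was the member whose response differed least between the states, with a log2 ratio of xylulose to glucose of 0.82 ± 0.43 in the evolved populations (higher in 12 of 12, limma adjusted p = 2.67e-05) and 1.18 ± 1.02 in the wild type (higher in 10 of 12, 6.15e-04). Evolved over wild type gave -0.44 ± 0.86 on xylulose (limma adjusted p = 0.412) and -0.08 ± 0.62 on glucose (0.882; with numbers 1 to 4 alone this value was 0.29).

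LYS12 (YIL094C), with both motifs upstream, had 238 to 577 RPM (median 321) in evolved and 274 to 853 RPM (median 489) in wild type columns on xylulose. On glucose it had 124 to 432 RPM (median 309.8) in evolved and 111 to 499 RPM (median 270.2) in wild type columns. The ranges of the 4 conditions overlapped throughout. Its log2 ratio of xylulose to glucose was 0.31 ± 0.59 in the evolved populations (limma adjusted p = 0.115) and 1.11 ± 0.72 in the wild type (7.47e-05, higher in 11 of 12). On xylulose evolved over wild type gave -0.56 ± 0.56 (limma adjusted p = 0.125, 0.0233 with the numbers exchanged).

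Lys2 reduces alpha-aminoadipate to its semialdehyde, the compound that works through Lys14, and needs a phosphopantetheine group that Lys5 attaches. LYS2 (YBR115C) had 134 to 507 RPM (median 212) in evolved and 226 to 826 RPM (median 569) in wild type columns on xylulose. Its glucose levels were 58.4 to 199 RPM (median 85.6) in evolved and 44.3 to 164 RPM (median 89.4) in wild type columns. Every wild type strain had more LYS2 on xylulose than any wild type strain on glucose, and 6 of the 12 evolved columns on xylulose lay below all wild type columns on xylulose. The log2 ratio of xylulose to glucose was 1.27 ± 0.76 in the evolved populations (2.40-fold, limma adjusted p = 1.34e-05) and 2.49 ± 0.83 in the wild type (5.63-fold, 1.68e-08), higher in 12 of 12 in each state. Evolved over wild type gave -1.17 ± 0.82 on xylulose (limma adjusted p = 0.0214) and 0.05 ± 0.91 on glucose (0.934), a value that was -0.0154 with median-of-ratios scaling.

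BY4743 carries a deletion of LYS2 on one of its homologs, so it has a single working copy. Wild type 11 had 226 RPM of LYS2 on xylulose, the lowest of the 12, and 86.1 RPM on glucose, in the middle of the strains. Evolved 7 had 166 RPM and evolved 11 had 138 RPM on xylulose. Whether copy number sets these levels was not tested.

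LYS5 (YGL154C) lay close to the floor of 10 RPM in every condition and held 8 of the 13 blanks. On xylulose it reached 25.5 RPM in evolved and 44.4 RPM in wild type columns, and on glucose 54.5 RPM in evolved and 36.1 RPM in wild type columns. The log2 ratio of xylulose to glucose was -0.31 ± 0.92 in the evolved populations (limma adjusted p = 0.346) and 0.50 ± 0.66 in the wild type (0.0840). On xylulose evolved over wild type gave -0.54 ± 0.67 (lower in 10 of 12, limma adjusted p = 0.233), and on glucose 0.28 ± 1.00 (0.687). With a pseudocount of 1 RPM and blanks at 0 the wild type ratio was 1.34 and did not pass either.

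Lys9 (saccharopine reductase) and Lys1 (saccharopine dehydrogenase) form saccharopine and split it to lysine. LYS9 (YNR050C), with 2 Lys14 elements upstream, had 178 to 521 RPM (median 329) in evolved and 181 to 948 RPM (median 523) in wild type columns on xylulose, and 121 to 382 RPM (median 202) in evolved and 59.6 to 337 RPM (median 185) in wild type columns on glucose. Its log2 ratio of xylulose to glucose was 0.45 ± 0.63 in the evolved populations (limma adjusted p = 0.0322, higher in 9 of 12) and 1.41 ± 0.99 in the wild type (7.38e-05, higher in 12 of 12). The call in the evolved populations held in 10 of 20 alternatives and was lost without number 3, 7, 8, 9, 10, 11 or 12 (adjusted p over the alternatives 0.00277 to 0.0807). For evolved over wild type on xylulose the value was -0.71 ± 0.88 (limma adjusted p = 0.191, 0.0205 with the numbers exchanged).

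LYS1 (YIR034C), which acts in the last step, had the largest difference between the states on xylulose, whereas on glucose that of LYS20 was larger. On xylulose it had 35.8 to 125 RPM (median 67.7) in evolved and 69.3 to 561 RPM (median 218) in wild type columns. On glucose it had 27.0 to 169 RPM (median 56.2) in evolved columns and from a blank to 82.0 RPM (median 31.4) in the wild type. None of the evolved columns on xylulose lay above all evolved columns on glucose, whereas 11 of the 12 wild type ones lay above all wild type columns on glucose. The log2 ratio of xylulose to glucose was 0.18 ± 0.96 in the evolved populations (1.13-fold, higher in 6 of 12, limma adjusted p = 0.583) and 2.76 ± 1.22 in the wild type (6.77-fold, higher in 12 of 12, 5.37e-07). The evolved value was -0.00101 without number 12, whose log2 ratio of 2.17 was the highest of the evolved populations. Evolved over wild type gave -1.61 ± 1.02 on xylulose (0.328-fold, limma adjusted p = 0.0201, rank 14 from the lowest of 5129 genes) and 0.97 ± 1.26 on glucose (limma adjusted p = 0.128, higher in 9 of 12).

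LYS14 (YDR034C) encodes the activator of the pathway itself. It had 30.9 to 89.1 RPM (median 53.4) in evolved and 55.1 to 125 RPM (median 85.1) in wild type columns on xylulose, and on glucose 21.4 to 72.7 RPM (median 47.0) in evolved columns and from a blank to 89.2 RPM (median 38.5) in the wild type. On xylulose 7 of the 12 evolved columns lay below all wild type columns, and it was lower in evolved than in wild type in 12 of 12 numbers, as labelled and with the numbers exchanged. The ratio of evolved to wild type on xylulose was -0.75 ± 0.51 in log2 (limma adjusted p = 0.0400). The log2 ratio of xylulose to glucose was 0.25 ± 0.45 in the evolved populations (limma adjusted p = 0.245) and 1.35 ± 0.81 in the wild type (2.57e-04, higher in 11 of 12).

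**Figure D3:**
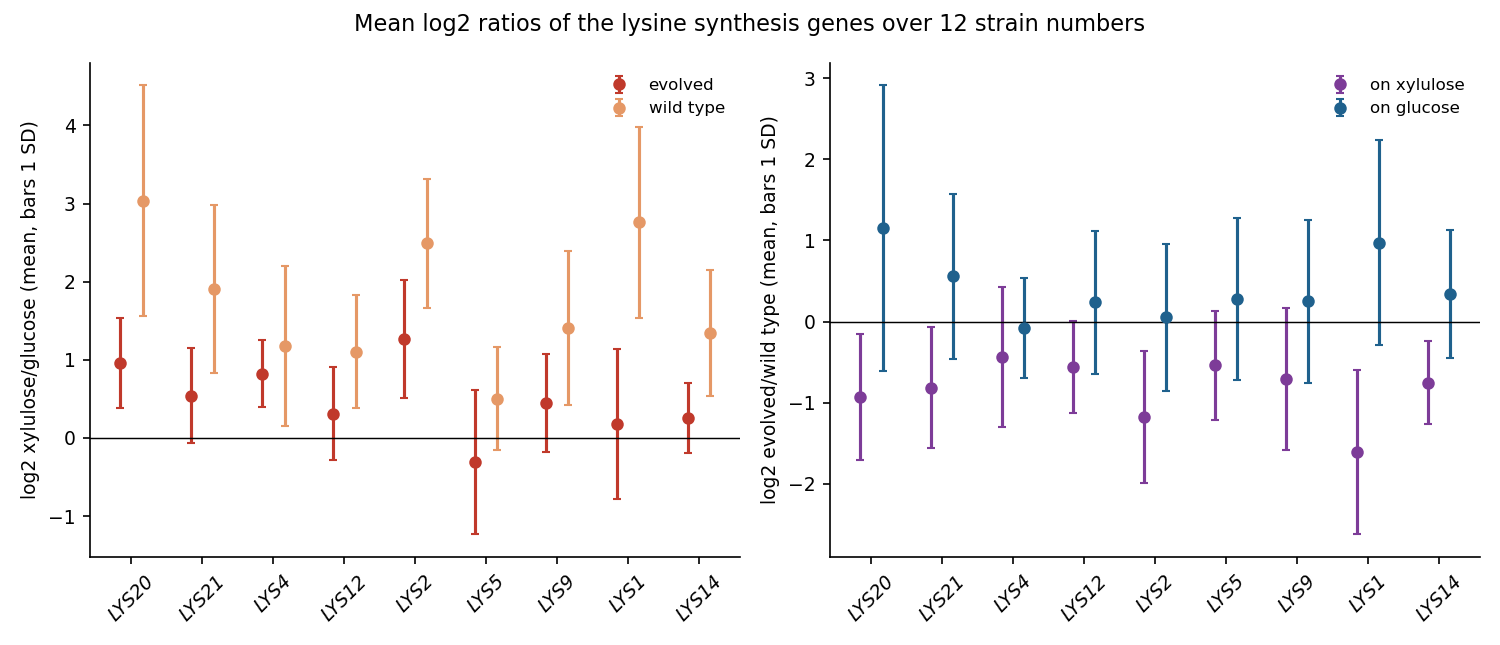
Mean log2 ratio of each gene over the 12 strain numbers (points) with 1 SD (bars). Left, xylulose over glucose in evolved populations and wild type strains; right, evolved over wild type on xylulose and on glucose. LYS1 averaged 0.18 in evolved populations and 2.76 in wild type strains on the left, and -1.61 on xylulose and 0.97 on glucose on the right.

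The change of the xylulose response with evolution, the evolved log2 ratio minus the wild type one, was known when the genes were chosen and is given without a test. It was -2.58 for LYS1, -2.08 for LYS20, -1.37 for LYS21, -1.23 for LYS2, -1.09 for LYS14, -0.96 for LYS9, -0.82 for LYS5, -0.80 for LYS12 and -0.36 for LYS4, with a median of -1.09 over the 9 and of -0.20 over all genes. The same fit put 6 of 9 past the threshold and 4.95% of all genes lower, from which nothing is read, since the choice of the genes rests on this result. The mean log2 ratio of evolved to wild type was -1.61 on xylulose and 0.97 on glucose for LYS1, -0.93 and 1.15 for LYS20, and -1.17 and 0.05 for LYS2. Of these 6 values those of LYS1 and LYS2 on xylulose passed the test, and the genes were not tested against each other.

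The calls between evolved and wild type on xylulose depended on the strains and on the labels. Of the 9 genes, 8 had an unadjusted p under 0.05, as had 13.6% of all genes, and 3 passed after adjustment. Neither count is independent of the choice of the genes, which was made with their lower response after evolution known. None passed when number 1, 2, 3, 4 or 8 was left out, 1 passed without number 7, 5 without 9 and 7 without 10. The share of all genes that passed with a number left out is not given here. Whether these shifts are particular to the lysine genes was not tested. With the evolved numbers exchanged the mean differences were the same and 7 of 9 passed (LYS1, LYS2, LYS9, LYS12, LYS14, LYS20 and LYS21), beside 4.43% of all genes in either direction. LYS1 and LYS2 were then lower in 12 of 12 numbers, against 10 of 12 as labelled. With numbers 1 to 4 alone, which leaves 4 pairs, LYS1 (-2.28, limma adjusted p = 0.0354) and LYS2 (-1.70, 0.0359) passed. The share of all genes that passed with these 4 numbers is not given here either.

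On glucose, LYS20 (log2 ratio 1.15 ± 1.76, limma adjusted p = 0.129), LYS1 and LYS21 (0.56 ± 1.02, 0.281) had the largest differences between evolved and wild type. LYS14 had 0.34 ± 0.79 (limma adjusted p = 0.571), LYS9 0.25 ± 1.00 (0.669) and LYS12 0.24 ± 0.88 (0.653). With the numbers exchanged LYS20 passed (0.0139), beside 3.12% of all genes in either direction, and LYS1 passed without number 12. The largest ratio of LYS20, 4.42, was that of number 5, whose wild type column was blank. Genes of other programmes also differed between these columns, beside the lysine genes. The summed level of 8 genes induced by phosphate starvation was 372 to 12127 RPM (median 3762) in evolved and 71.9 to 393 RPM (median 175) in wild type columns on glucose, and that of 6 genes of mating type a cells 41.1 to 4883 RPM (median 1458) in evolved and 11.7 to 87.3 RPM (median 47.4) in wild type columns. On xylulose the phosphate sum reached 257 RPM in evolved and 166 RPM in wild type columns. Their part in the glucose values of the lysine genes was not tested.

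The strains differed in their response. In 10 of the 12 wild type strains the median log2 ratio of xylulose to glucose over the 9 genes lay between 1.32 (CBS7960) and 2.67 (CLIB215), with 8 or 9 genes higher on xylulose. The glucose column of CLIB215 had the lowest depth of the 17 columns where depth was read. The median was 0.51 in BY4743, with 8 genes higher, and 0.00 in EC1118, with 4 higher and 4 lower. The 0.00 was the value of LYS5, blank in EC1118 on both sugars and so set to 10 RPM on each. EC1118, a wine yeast, had low values of most of the genes on xylulose and high ones of most on glucose. On xylulose it had 181 RPM of LYS9, the lowest of the wild type strains, and on glucose it had 359 RPM of LYS4, 499 RPM of LYS12, 295 RPM of LYS21 and 89.2 RPM of LYS14, each the highest of the wild type strains. Its LYS2 was still higher on xylulose (274 RPM) than on glucose (112 RPM). Its LYS14 on xylulose (81.9 RPM) lay near the wild type median (85.1 RPM), and its LYS9 on glucose (163 RPM) below that median (185 RPM).

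In the evolved populations the medians lay between -0.27 (number 6) and 1.52 (number 12), and 3 of the 12 (numbers 4, 5 and 6) were below 0. On xylulose, number 10 was the one number with a median above 0 for evolved over wild type (0.52, 8 of 9 genes higher). With the numbers exchanged, wild type EC1118 is set against evolved 6, the median of that pair was -0.03, and all 12 medians were below 0. Between these medians, the lowest were -1.57 for T7 and -1.52 for SK1.

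**Figure D4:**
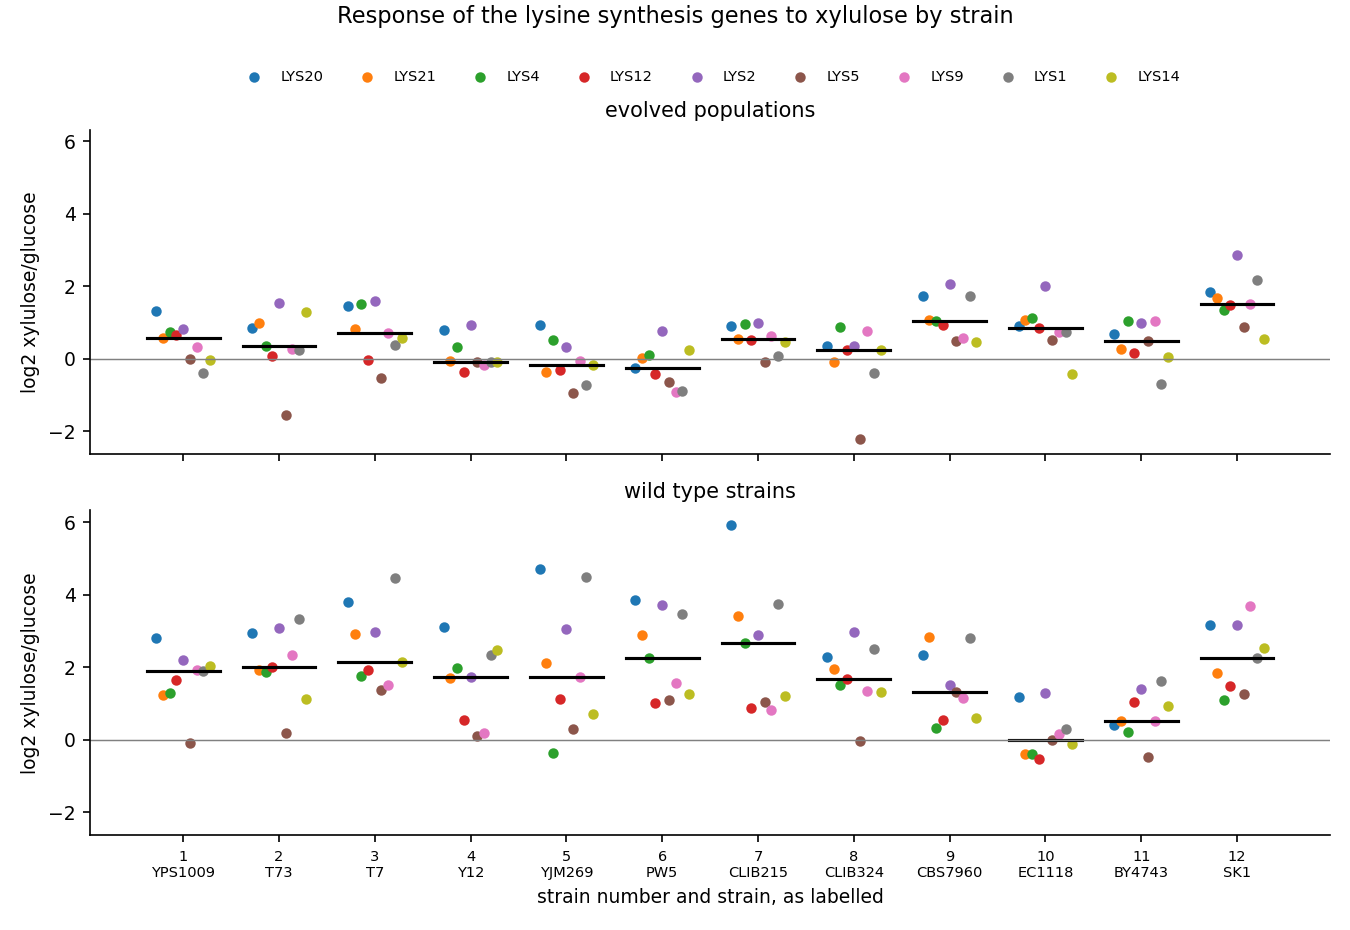
Log2 ratio of xylulose to glucose (y axis) of the 9 genes (colours) in each strain number as labelled (x axis), in evolved populations (above) and wild type strains (below); black bars are medians over the 9 genes. EC1118 (number 10) and BY4743 (11) had the lowest medians of the wild type strains, 0.00 and 0.51. The 0.00 is the value of LYS5, blank in EC1118 on both sugars.

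Across the 12 strains the responses of the 9 genes to xylulose went together to unlike degrees. Over the 36 pairs of genes, Pearson's r of the wild type log2 ratios ran from 0.10 (LYS5 and LYS12) to 0.85 (LYS1 and LYS21), with a median of 0.48. In the evolved populations it ran from -0.30 (LYS5 and LYS14) to 0.95 (LYS2 and LYS21), with a median of 0.60. These are descriptions over 12 points, and the 2 ratios of a strain share their columns.

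Among 8 other genes of lysine metabolism and its control, 5 were higher on xylulose in evolved populations and 5 in wild type strains, the same genes in both (ARO8, ARO9, ODC1, ODC2 and GCN4), where 24.0% of all genes were higher in evolved populations and 30.5% in wild type strains. LYP1, KRS1 and MKS1 did not pass in either state, with log2 ratios of 0.09, -0.42 and 0.05 in evolved populations and 0.39, 0.26 and 0.62 in wild type strains. Between evolved and wild type none of the 8 passed on either sugar, where 0.838% of all genes passed on xylulose and 2.34% on glucose. On xylulose 5 of the 8 had an unadjusted limma p under 0.05, beside 13.6% of all genes. On glucose 1 of the 8 had such a p, beside 16.3% of all genes. ODC1 and ODC2 encode the mitochondrial carriers of 2-oxoadipate and 2-oxoglutarate. ODC1 had a log2 ratio of 3.63 ± 0.79 in the evolved populations (2.34e-11) and 3.43 ± 1.00 in the wild type (limma adjusted p = 4.88e-09), and ODC2 of 1.16 ± 0.76 in the evolved populations (3.89e-05) and 2.26 ± 1.33 in the wild type (6.15e-06). The change with evolution was 0.20 for ODC1 and -1.10 for ODC2, given without a test as for the lysine genes. ARO9, an aromatic aminotransferase, stood at 1.04 ± 1.40 in the evolved populations (limma adjusted p = 0.0113) and 3.13 ± 0.59 in the wild type (2.40e-10).

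GCN4 mRNA lay between 1842 and 2616 RPM (median 2071) in evolved and between 2238 and 3531 RPM (median 2625) in wild type columns on xylulose, and between 1018 and 1548 RPM (median 1145) in evolved and 971 and 1658 RPM (median 1297) in wild type columns on glucose. The xylulose and glucose columns did not overlap in either state. Its log2 ratio of xylulose to glucose was 0.85 ± 0.16 in the evolved populations (limma adjusted p = 1.18e-06) and 1.07 ± 0.28 in the wild type (1.52e-08). Evolved over wild type gave -0.33 ± 0.26 on xylulose (lower in 11 of 12, limma adjusted p = 0.120) and -0.10 ± 0.27 on glucose (0.766). Gcn4 is controlled mainly at translation, which mRNA levels do not show.

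Likeness to the pathway was measured over the 48 columns. Against the mean standardised profile of the 5 members with a value in every column (LYS2, LYS4, LYS9, LYS12 and LYS21), Pearson's r was 0.84 for AAT2 (cytosolic aspartate aminotransferase), 0.82 for ARG7 (ornithine acetyltransferase), and 0.81 each for LEU4 (isopropylmalate synthase), RIB5 (riboflavin synthase) and TRP4 (anthranilate phosphoribosyl transferase), the 5 highest of 2523 genes. ARO8 ranked 7, ODC2 8 and GCN4 10, whereas LYP1, the lysine permease, ranked 538. The columns share the sugar and the strain, so these values describe likeness alone.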

How the data were processed

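RNA of 12 wild type strains and of the 12 populations evolved from them was sequenced on xylulose and on glucose, with 2 repeats. The authors mapped single reads of 50 bases with Bowtie (version not given in the sources used here) to S. cerevisiae S288C (R64), left out rRNA, counted each molecular identifier once so that PCR copies did not add, and scaled each library to 1000000. The deposited values are log2 RPM per gene, by the paper's account averaged over the 2 repeats, and blank under 10 RPM. How far the repeats differed is hidden, and p-values measure the spread between strains.

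Blanks were set to 10 RPM, and the 5129 genes that averaged 10 RPM or more over the 48 columns, with blanks counted as 0 for this filter, were tested with limma 3.58.1 in R 4.3.3 (lmFit and eBayes with trend) on the 12 log2 differences paired by strain number, with Benjamini-Hochberg adjustment over all genes tested and calls at an adjusted p under 0.05. The fit was tested on simulated data. The pairing rests on the strain in the labels. The deviations of same-numbered columns from their condition means correlated above 0.1 between the media in 10 of 12 numbers of evolved populations and in 7 of 12 of wild type strains, and between evolved and wild type in 3 of 12 on xylulose and 2 of 12 on glucose. Column depth was read from the spacing of values up to 60 RPM (tolerance 0.004 RPM, at least 85% of values on the steps).

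The 9 members, the list of 8 related genes, the check lists and the tests were chosen with earlier results of these data known. All members were named in each comparison, with the related genes between the sugars and the 5 genes most like the members. The change of the ratio with evolution was known at the choice and got no p, and its counts of calls are a description that carries no evidence. The tested comparisons use the same columns, so their counts beside all genes are not independent of the choice. Upstream windows and coding sequences were read from the R64 genome, and 5953 gene names matched RefSeq. Alternatives were pseudocounts of 1 and 10 RPM with blanks at 0, no filter, a minimum mean of 50 RPM, genes with a value in every column, median-of-ratios scaling, no pairing, LYS20 and LYS21 summed, each number left out, the evolved numbers from 5 to 12 exchanged, and numbers 1 to 4 alone. Protein sequences were not used here, and 1 related gene is not reported here.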

Additional observations from a re-analysis of the deposited data

How the results depend on the processing

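The values limit statements in 3 ways: depth per column is known for 17 of 48, levels near 10 RPM (LYS5 above all) carry few reads, and the repeats are not given apart. In the wild type strains the 8 calls on xylulose over glucose held in each alternative in which the gene was tested, and the 5 members with a value in every column (5 of 5) passed when these genes alone were tested. Leaving out a strain number gave 4 to 5 calls in the evolved populations, 0 to 7 for evolved over wild type on xylulose, and 0 to 1 for evolved over wild type on glucose. Without the replicate block (no pairing of columns) the counts were 4 in the evolved populations, where LYS9 was lost, 8 in the wild type strains, 4 for evolved over wild type on xylulose, where LYS20 was gained, and 0 on glucose. With no filter on low genes the count was 0 for evolved over wild type on xylulose. With the evolved numbers exchanged 7 passed for evolved over wild type on xylulose and 1 on glucose. For the change of the ratio, whose calls carry no evidence here, the count of 6 was 3 with no filter, 3 of 5 among members with a value in every column, 2 with numbers 1 to 4 alone and 3 to 7 with a number left out. The cause of these shifts was not tested, nor whether they are particular to the lysine genes. Shares of all genes stand above for the exchanged numbers alone and are not given here for the other alternatives.

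Log2 ratios near 0 changed sign. LYS2 for evolved over wild type on glucose was -0.0154 with median-of-ratios scaling and -0.44 with numbers 1 to 4 alone, and ran from -0.14 to 0.13 with a number left out. LYS4 in that comparison was 0.29 with numbers 1 to 4 alone. LYS1 for xylulose over glucose in the evolved populations ran from -0.00101 to 0.28 with a number left out. Of 924 values of single members under alternatives, 867 counted as the same, 34 lost a call, 17 gained one and 6 changed sign. For the tested comparisons the same means that direction and side of the threshold were kept. For the change of the ratio, also among the 924, it means a value within the SD between strains of the main one. The threshold was not used there.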

Other observations

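KRS1, the cytosolic lysyl-tRNA synthetase, which loads lysine onto its tRNA, differed between strains more than between sugars. On xylulose it lay between 68.7 and 145 RPM in wild type strains 1, 3, 4, 5 and 6 and between 728 and 2051 RPM in the other wild type strains. On glucose these ranges were 30.9 to 99.5 RPM and 916 to 2187 RPM, so the sets did not overlap on either sugar. In the evolved columns numbers 1, 3, 4, 9 and 10 held the lowest values, 73.5 to 256 RPM on xylulose and 87.6 to 482 RPM on glucose. By the exchanged numbers given above (5 with 9 and 6 with 10), this set corresponds to wild type strains 1, 3, 4, 5 and 6. The sets were read off after the values were seen, and whether reads of some strains map less well to the reference at this gene was not tested. The log2 ratio of xylulose to glucose of KRS1 was -0.42 in the evolved populations and 0.26 in the wild type strains.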
